A study of Drosophila melanogaster with 16 samples.

Results

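HP1b stood without ROW, WOC or HP1c at 302 autosomal sites in fly heads, out of 5880 autosomal regions and 7897 regions in all that carried at least 1 of the 4 factors. The sites were selected on peak positions: a region had to consist of HP1b peaks alone, with no ROW, WOC or HP1c peak touching it by 1 bp or more, on 2L, 2R, 3L or 3R, whether or not H3K4me3 was present. Each of the 302 sites was 1 HP1b peak, and together they were 17.6% (95% Wilson interval 15.8 to 19.4) of the 1720 autosomal HP1b peaks. Heads came from Drosophila melanogaster carrying 1 copy of the Actin-gal4 driver (Actin-gal4/+) in the W1118 white-eyed background, labelled as controls, and every antibody was used on this genotype. Chromatin was precipitated with antibodies against HP1b (2 libraries), HP1c, ROW and WOC (3 each) and the histone mark H3K4me3 (3), with IgG (2) as the non-specific control. Whole heads mix neurons, glia, eye, fat and muscle cells, so fewer bound cells and weaker binding per cell cannot be told apart. Replicates had been combined into 1 list per antibody, so no spread between libraries can be given, and intervals and p-values below describe regions of these lists and not flies.

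HP1b and HP1c are Drosophila members of the heterochromatin protein 1 family, whose chromodomain can bind methylated histone H3 tails and whose chromoshadow domain mediates dimers and contacts with partner proteins. HP1c is known mainly from euchromatin, where it works with the zinc-finger proteins WOC and ROW, while HP1b occurs in both euchromatin and heterochromatin. H3K4me3 marks the start of actively transcribed genes. Genes and DNA sequences at these positions were not analysed here, so sites are given by their dm3 coordinates, counted from 1.

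HP1b-only sites were narrow. Their median width was 311 bp (300 to 321), against 376 bp (367 to 388) for the 1418 autosomal HP1b peaks that touched another factor. The narrowest site measured 250 bp, which was also the narrowest autosomal HP1b peak of the whole list, and 43.7% (38.2 to 49.3) were under 300 bp. The share of HP1b peaks that stood alone was 28.4% (132 of 465) under 300 bp, 20.3% (118 of 581) from 300 to under 400 bp, 10.45% (46 of 440) from 400 to under 600 bp and 2.56% (6 of 234) at 600 bp or more. A wide peak meets another peak more easily, so width bears on the choice of the sites and was not tested. The other classes with 1 factor alone were as narrow, with medians of 298 bp for HP1c, 314 bp for ROW and 286 bp for WOC. The factor lists give no height per peak.

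**Figure D1:**
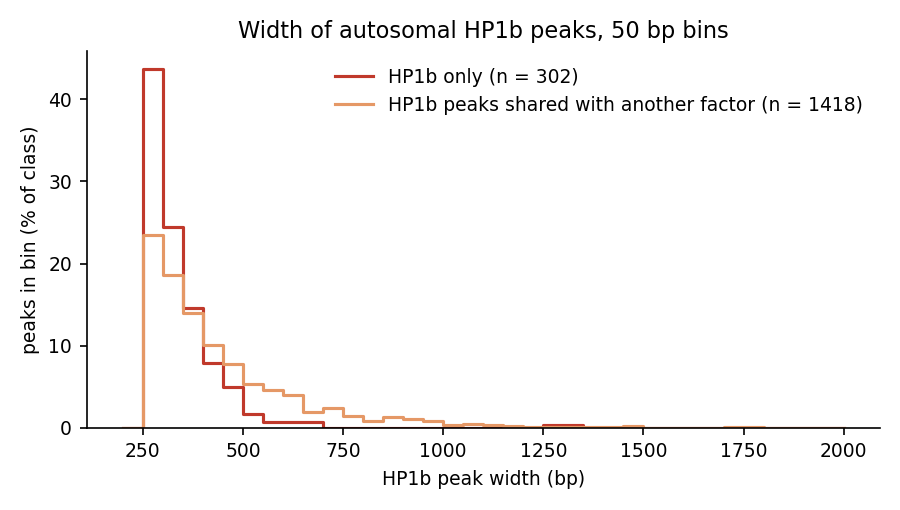
Histogram of peak width in 50 bp bins for the 302 HP1b-only sites and the 1418 autosomal HP1b peaks shared with another factor, each as a percentage of its class. HP1b-only sites pile up in the narrowest bin and thin out beyond 400 bp, with 6 of 302 at 600 bp or more.

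The widest HP1b-only sites stood close together on proximal 3L. The widest pair, at chr3L:24167144-24168478 (1335 bp) and chr3L:24162622-24163910 (1289 bp), lay 23181 and 27749 bp from the nearest peak of any other factor. A neighbour of both, at chr3L:24153775-24154456 (682 bp), was next in width on that arm. None of these 3 had an H3K4me3 summit within 50 kb. They fell in the fullest window of 100 kb on the autosomes, chr3L:24104289-24204288, which held 5 HP1b-only sites among 11 factor regions and 0 H3K4me3 summits. The other sites in that window were narrow, at 277 and 256 bp, and had another factor 1458 and 1540 bp away. On the other arms the widest sites reached 652 bp on 2L (chr2L:22097542-22098193), 611 bp on 2R (chr2R:4020910-4021520) and 583 bp on 3R (chr3R:12445577-12446159). The next widest were 649 and 529 bp on 2L, 595 and 473 bp on 2R, and 530 and 522 bp on 3R. None of these 12 sites, the 3 widest of each arm, overlapped H3K4me3. The mark was on 15 of all 302 sites (4.97%), a share too low for its absence from 12 to set them apart. A marked site of 499 bp on 3R was wider than the 473 bp site on 2R.

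Most HP1b-only sites lay kilobases away from the other factors and not just beyond the edge of their peaks. The median gap to the nearest HP1c peak, edge to edge, was 5989 bp (5104 to 7946), to the nearest WOC peak 6855 bp (5326 to 9093) and to the nearest ROW peak 9047 bp (6788 to 11492). The gap to the nearest of the 3 had a median of 3735 bp (3161 to 4742). At 49 sites (16.2%, 12.5 to 20.8) another factor lay within 1 kb, and at 81 sites none lay within 10 kb. The site with the widest gap, chr3L:2076474-2076783, was 111789 bp from the nearest ROW peak and 166817 bp from the nearest HP1c peak. On 2R, the sites chr2R:14950417-14950697 and chr2R:9248894-9249176 were next, both 63444 bp from another factor. At the other end, chr3L:16680955-16681276 missed an HP1c peak by 8 bp, chr3R:796279-796688 by 26 bp and chr3R:426667-426960 by 50 bp, while the shared HP1b peaks nearest to the limit overlapped their partner by 4, 10 and 12 bp. A gap of up to 200 bp counted as contact at 12 sites and left 290. Isolation of this kind was also seen in the other classes of 1 factor: another factor lay within 1 kb of 13.9% of HP1c-only (11.6 to 16.5), 15.5% of ROW-only (13.2 to 18.2) and 15.6% of WOC-only regions (11.5 to 20.8). No other factor lay within 10 kb of 26.8% (22.1 to 32.1) of HP1b-only sites. That share was 35.1% (31.9 to 38.5) for HP1c-only, 23.9% (21.0 to 26.9) for ROW-only and 21.2% (16.4 to 26.9) for WOC-only regions.

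**Figure D2:**
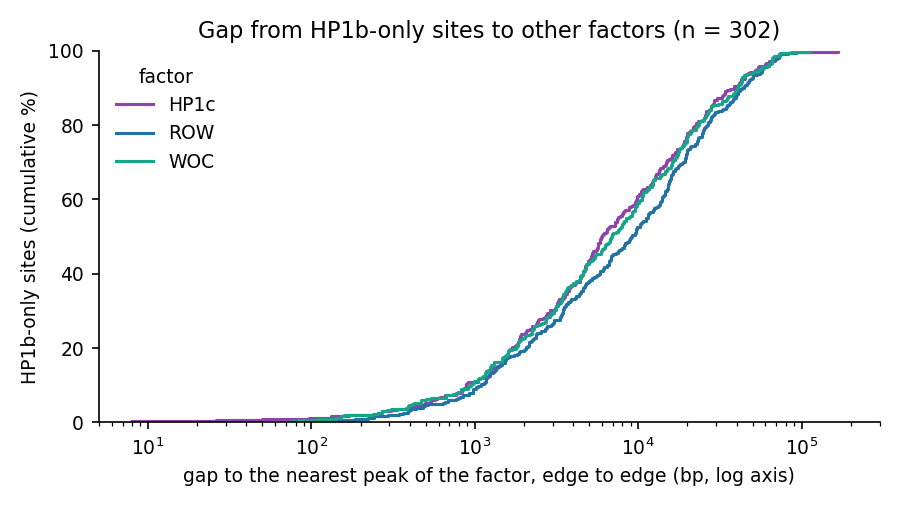
Cumulative percentage of the 302 HP1b-only sites against the edge-to-edge gap to the nearest HP1c, ROW or WOC peak (bp, log axis). The HP1c and WOC curves run close together and reach 50% near 6 to 7 kb, and the ROW curve lies to their right with a median of 9047 bp.

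HP1b-only sites seldom carried H3K4me3. An H3K4me3 peak overlapped 15 of the 302 sites, or 4.97% (3.03 to 8.03), while 37.3% of all 5880 autosomal regions were overlapped. The share was 4.97% for HP1b-only sites against 38.9% (313 of 805) for ROW-only regions (odds ratio 0.0822, 95% Woolf interval 0.0480 to 0.141, Fisher's exact test, adjusted p = 1.56e-33). It was also below the 22.1% (51 of 231) of WOC-only regions (odds ratio 0.184, 0.101 to 0.338, Fisher's exact test, adjusted p = 4.45e-09), although with an overlap of at least 0.5 of the shorter interval that difference missed the threshold (odds ratio 0.413, adjusted p = 0.0518). Against the 4.07% (32 of 786) of HP1c-only regions Fisher's exact test did not pass (odds ratio 1.23, 0.657 to 2.31, adjusted p = 0.508). That interval spans lower and higher odds, so the classes of HP1b alone and HP1c alone are not shown to be alike.

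Among shared HP1b sites, the marked ones were mostly those with ROW. As merged regions, 28.1% (394 of 1403) of those with HP1b and another factor carried the mark (odds ratio for HP1b-only 0.134, 0.0786 to 0.228, Fisher's exact test, adjusted p = 2.33e-21). Of the 1403, 830 held all 4 factors, and 337 of these (40.6%) were marked. The split by ROW below therefore does not separate ROW from WOC and HP1c, and no split by WOC or HP1c was made. Merging widens a shared region to a median of 611 bp, and among regions of 250 to 350 bp alone 5.24% (11 of 210) of HP1b-only and 2.0% (2 of 100) of shared regions were marked (odds ratio 2.71, 0.589 to 12.5, Fisher's exact test, adjusted p = 0.315). These 100 need not hold the factors in the same proportions as the 1403. Regions with all 4 factors had a 25th percentile of 571 bp, and those with only HP1b and HP1c a median of 439 bp. The HP1b peaks themselves, left unmerged, were therefore compared as well, over 3 tests chosen after seeing the data. Of the 302 HP1b-only peaks 4.97% were marked, against 22.6% (228 of 1007) of HP1b peaks that touched ROW (odds ratio 0.179, 0.104 to 0.306, Fisher's exact test adjusted over 3 tests, p = 8.9e-14). HP1b peaks that touched HP1c or WOC but not ROW were marked at 2.92% (12 of 411), and HP1b-only peaks did not pass the threshold against them (odds ratio 1.74, 0.801 to 3.77, Fisher's exact test, adjusted p = 0.169). Over all 1418 shared HP1b peaks the share was 16.9% (odds ratio 0.257, 0.150 to 0.439, Fisher's exact test, adjusted p = 1.02e-08). Peaks shared with ROW had the highest share at each width. Under 300 bp, 6.06% (8 of 132) of HP1b-only peaks, 4.55% (6 of 132) of those shared without ROW and 23.9% (48 of 201) of those shared with ROW were marked. From 300 to under 400 bp the shares were 4.24%, 2.19% and 25.5%, and from 400 to under 600 bp 4.35%, 0.990% and 20.5%. At 600 bp or more 0 of 6 HP1b-only peaks, 2 of 41 shared without ROW and 37 of 187 shared with ROW were marked. Within each width the intervals of HP1b-only peaks and of those shared without ROW overlapped, and differences by width were not tested.

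**Figure D3:**
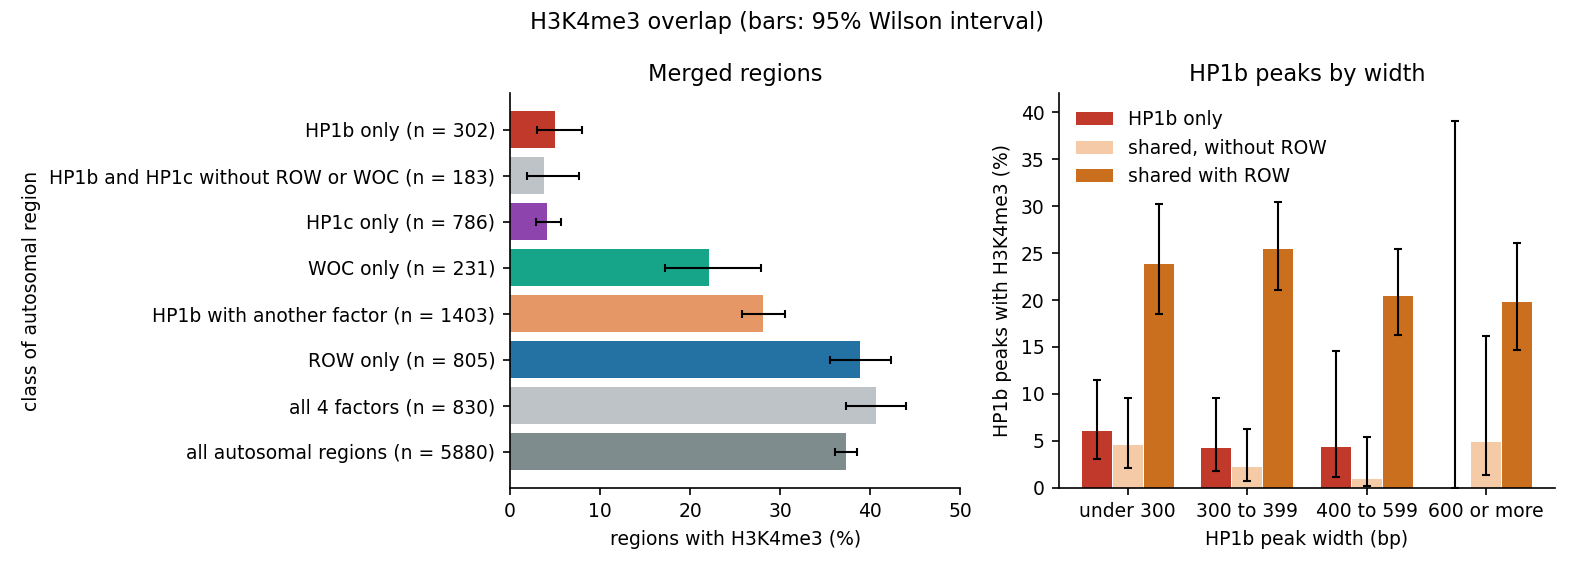
Left, the percentage of merged autosomal regions overlapped by H3K4me3 for each class; right, the same for unmerged HP1b peaks by width, with HP1b-only peaks beside peaks shared without and with ROW (bars, 95% Wilson intervals). HP1b-only sites stand at 4.97% on the left, and on the right peaks shared with ROW lie between 19.8% and 25.5% at every width.

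The 15 marked sites were of 2 kinds. At 6 of them the same H3K4me3 peak was also touched by another factor beside HP1b (ROW and WOC at 5, HP1c at 2), and at 9 it was touched by HP1b alone. ROW at 5 of 15 was a low share. It touched 51.9% (2331) of the 4488 autosomal H3K4me3 peaks, and 92.2% (237) of the 257 that met any HP1b peak. In the authors' fold enrichment over background, the 15 H3K4me3 peaks had a median of 4.21 (2.45 to 5.59), from 1.62 to 7.82. The 394 marked regions that HP1b shared had a median of 4.40 (4.28 to 4.59). There the strongest H3K4me3 peak of each region was taken, while each of the 15 sites met 1 peak. Of the 15, 9 were above 3.85, the median of the 4488 autosomal H3K4me3 peaks. The sites with most signal were those whose mark also met ROW and WOC. At chr2R:1195661-1195919 the H3K4me3 peak had a fold enrichment of 7.82 (−log10 q 151), 16th among all autosomal H3K4me3 peaks, with ROW 185 bp and WOC 237 bp from the HP1b edge. At chr3L:23330009-23330386 it had 7.21 (−log10 q 131), 39th in rank, with HP1c at 131 bp, ROW at 516 bp and WOC at 733 bp. The next were chr2L:15749984-15750332 (6.08), chr2R:129060-129349 (5.59) and chr2R:8501303-8501595 (4.80), each with ROW and WOC from 659 to 1079 bp away. All 5 of these H3K4me3 peaks were over 1 kb wide, from 1008 to 1967 bp, and the HP1b centre lay 719 to 1018.5 bp from the summit.

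Among the 9 sites where HP1b was the sole factor on the H3K4me3 peak, the fold enrichment reached 4.75 at chr3L:9622869-9623211, where the nearest other factor was 5473 bp away, and 4.21 at both chr2L:7156895-7157199 and chr3R:21342303-21342588. The first of that tied pair had its nearest other factor 19980 bp away. The second had HP1c at 437 bp, ROW at 495 bp and WOC at 541 bp, outside the H3K4me3 peak. The lowest were 1.92 at chr2L:21483728-21484105 and 1.62 at chr2L:21468638-21468916 on the same stretch of 2L, which ranked 4404th and 4476th of 4488. Over the 15 sites the overlap with the mark spanned 11 to 448 bp (median 259), the HP1b centre was inside the H3K4me3 peak at 9, and the median distance to its summit was 363 bp. Just outside the limit, 6 of the 287 unmarked sites had the edge of an H3K4me3 peak within 500 bp and 14 within 1 kb.

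Most unmarked sites lay kilobases from H3K4me3 peaks and not just outside them. Of the 287 unmarked sites, 78 had the edge of an H3K4me3 peak within 5 kb and 119 within 10 kb. The distances to summits that follow are for all 302 sites. The distance from the site centre to the nearest H3K4me3 summit had a median of 12321 bp (10357 to 15366.5) at HP1b-only sites, against 5360 bp (4381.5 to 6045.5) at shared HP1b peaks. At HP1b peaks shared with ROW it was 2075.5 bp (1503.5 to 2908.5), and at those shared without ROW 11971 bp (9413.5 to 14536). HP1c-only regions stood at 11917 bp (10790.5 to 13466), WOC-only at 6038 bp and ROW-only at 854 bp. These medians are descriptions, without a test. The 25th and 75th percentiles at HP1b-only sites were 4309 and 34441 bp. Centres within 1 kb of a summit made up 5.30% of HP1b-only sites (16 of 302), where 43.9% of all autosomal regions were that close. For 46 sites (15.2%, 11.6 to 19.7) there was no summit within 50 kb, the farthest being 187630 bp away. The same was true of 9.48% (8.06 to 11.1) of regions shared by HP1b, 13.4% (11.2 to 15.9) of HP1c-only, 9.09% (6.02 to 13.5) of WOC-only, 3.23% (2.21 to 4.69) of ROW-only and 6.84% (6.22 to 7.51) of all autosomal regions. With only the H3K4me3 peaks above the median −log10 q the HP1b-only median was 23235 bp (17325.5 to 27222.5).

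**Figure D4:**
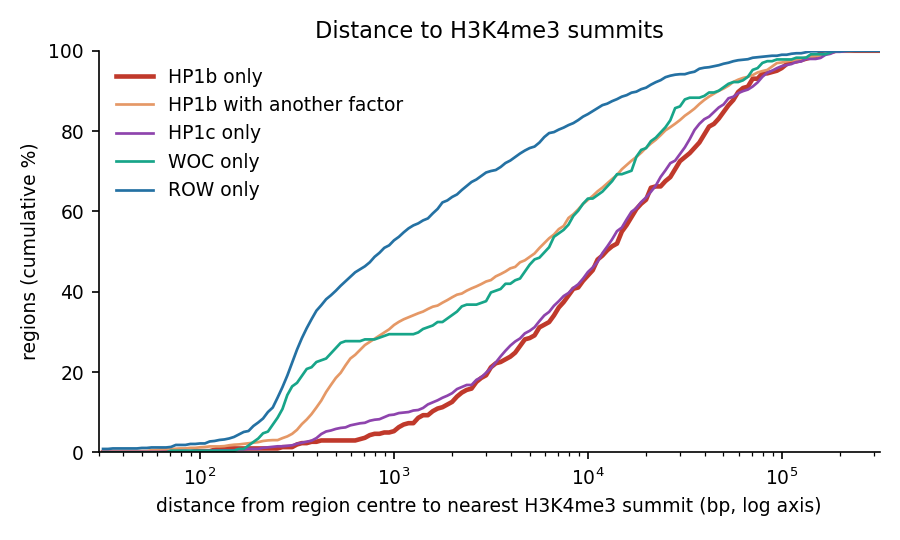
Cumulative percentage of regions against the distance from the region centre to the nearest H3K4me3 summit (bp, log axis) for HP1b-only sites and 4 other classes. The HP1b-only curve runs beside that of HP1c-only regions, with medians of 12321 and 11917 bp, and far to the right of ROW-only regions at 854 bp.

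Taking both kinds of neighbour at a limit of 10 kb, 115 sites (38.1%, 32.8 to 43.7) had another factor and an H3K4me3 summit nearby, and 106 (35.1%, 29.9 to 40.6) had another factor but no summit. Another 18 (5.96%, 3.803 to 9.22) had a summit and no other factor. The remaining 63 (20.9%, 16.7 to 25.8) had neither. In all, 56.0% (50.3 to 61.4) of HP1b-only sites had no summit within 10 kb, against 28.9% (27.7 to 30.03) of all autosomal regions. HP1c-only regions had nearly the same share, 55.1% (51.6 to 58.5). In the 20% of the arm nearest the centromere, called proximal here, lay 40 of the 115, 43 of the 106, 4 of the 18 and 17 of the 63 sites, where 25.9% of all autosomal regions lay. Median width varied little among the 4 settings, at 312, 316, 307.5 and 291 bp.

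HP1b-only sites were spread over all 4 arms, with 69 on 2L, 60 on 2R, 87 on 3L and 86 on 3R, or 3.0, 2.84, 3.55 and 3.08 per Mb of the extent covered by peaks. As a share of the arm's HP1b peaks they were 15.7% (12.6 to 19.4) on 2L, 16.9% (13.4 to 21.2) on 2R, 17.1% (14.1 to 20.6) on 3L and 20.6% (16.98 to 24.7) on 3R, and these intervals overlap. The proximal 20% of the arms held 104 of the 302 (34.4%, 29.3 to 39.96), against 25.9% of all autosomal regions, and the following equal parts towards the telomere held 61, 58, 46 and 33. The proximal share was 34.8% on 2L, 36.7% on 2R, 35.6% on 3L and 31.4% on 3R, against 27.5%, 28.0%, 23.5% and 25.3% of all regions on those arms. Regions that HP1b shared with other factors had a like profile, with 32.5% (30.1 to 35.0) in the proximal part, while HP1c-only regions had 25.8% (22.9 to 29.0) and ROW-only regions 19.4% (16.8 to 22.3). H3K4me3 peaks were spread almost evenly, with 19.7% in the proximal part and 21.2% in the most distal one. The proximal share is thus given for HP1b regions of both kinds and was not tested. The marked HP1b-only sites numbered 5, 2, 5, 3 and 0 from the proximal to the most distal part.

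**Figure D5:**
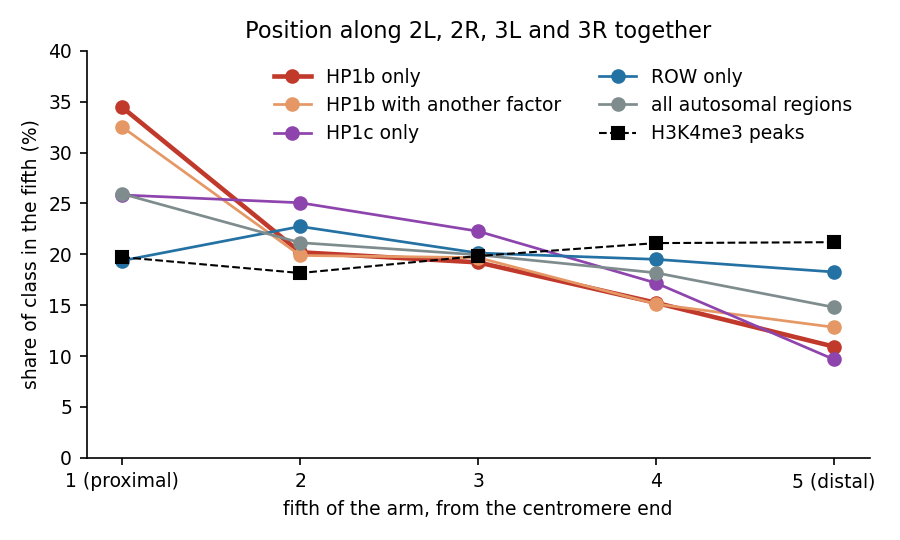
Percentage of each class in each of 5 equal parts of the arm, from the centromere end to the telomere end, summed over 2L, 2R, 3L and 3R. HP1b-only sites make up 34.4% in the proximal part and 10.9% in the most distal one, close to shared HP1b regions, while H3K4me3 peaks stay between 18.2% and 21.2%.

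HP1b-only sites were sparse, at 2.84 to 3.55 per Mb, and few had another close by. The spacing among them was not set against that of other classes. The nearest other HP1b-only site was a median of 90895 bp away (77388.5 to 104425), and 29 of 302 (9.60%) had one within 10 kb. The nearest HP1b peak of any kind was 14075 bp away (10787 to 19537), against 9994 bp (9098.5 to 11304) for shared HP1b peaks. The closest pair, chr2R:1216144-1216432 and chr2R:1216806-1217069, was separated by 373 bp. The next pairs were chr3L:22963679-22963988 with chr3L:22965124-22965388 (1135 bp apart) and chr2L:18396238-18396554 with chr2L:18398342-18398870 (1787 bp apart). After the 3L window described above, the fullest windows of 100 kb began at 452824 and 1184835 on 2R and at 23248635 on 3L, with 4 sites each among 16, 21 and 14 factor regions. These 3 began at 0.0213, 0.0560 and 0.0526 of the arm from its proximal end.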

How the data were processed

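Chromatin immunoprecipitation followed by sequencing had been run on 16 libraries, and the authors deposited 1 list of peak positions per antibody for 5 antibodies, with the replicates of each antibody combined. Per the submitters' processing notes the build is dm3 and the tools were Bowtie2, SAMtools, MACS2 and deepTools. Versions, roles and thresholds are not given in the sources used. The deposited factor lists hold positions in bp and no other value. The deposited H3K4me3 list adds the fold enrichment at the summit (a ratio) and the −log10 q-value, both the authors' own, and the names of its peaks mention macs2 and IgG. No read counts were used, so depth is unknown, and a missing peak may be a peak that was not called.

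Peaks of ROW, WOC, HP1c and HP1b that overlapped by at least 1 bp were merged, and contigs X, 4, M and Het were dropped. Shares carry 95% Wilson intervals and medians 95% exact binomial intervals, which cover counting error only. H3K4me3 shares were compared with Fisher's exact test, two-sided, with Benjamini-Hochberg adjustment over 4 comparisons, and odds ratios with Woolf intervals. The threshold was an adjusted p of 0.05. The functions that merge peaks, find overlaps and measure gaps between edges were tested on simulated peaks. Alternatives on narrow regions, on the proximal part of the arms and on HP1b peaks in place of merged regions were chosen after seeing the data. The sites and all classes were chosen with earlier results of these data known. Named regions were the 3 widest on each arm, the 5 with the highest H3K4me3 −log10 q, the 3 farthest from any other factor, the 3 nearest to HP1c, the 3 closest pairs and the 3 fullest windows of 100 kb with those tied with them. Gene coordinates were given only for another genome release, so genes, promoters and sequences were not assigned. The scripts ran in Python 3.11.15 with SciPy 1.17.1, pandas 2.3.3, NumPy 2.4.6 and, for plots, matplotlib 3.10.9.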

Additional observations from a re-analysis of the deposited data

How the results depend on the processing

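No paired analysis was possible because no list separates the replicates, which also prevents leaving one out. Of 43 alternatives, 32 changed neither direction nor call (tests), stayed within the interval of the value (shares and medians) or stayed within 1.5 times the count of sites. The odds ratio for H3K4me3 against ROW-only regions was 0.0648 to 0.123 in all 7 of its alternatives. Against HP1c-only regions no value passed the test, and the direction turned with an overlap of 0.5 of the shorter interval (0.975), a gap of 500 bp allowed (0.688), HP1b-only regions wider than their median (0.989) and regions of 250 to 350 bp (0.988). Against regions with HP1b and another factor it turned for regions of 250 to 350 bp (2.71, not called). There 100 shared regions remained, which need not hold the factors in the same proportions. Against WOC-only regions the call was lost with an overlap of 0.5 of the shorter interval (0.413). For these the cause was not tested. With only peaks wider than the median of each list there were 176 HP1b-only sites. These need not be among the 302, because leaving out a narrow peak of another factor can make a shared HP1b peak stand alone. The median width of autosomal HP1b peaks, 359 bp, was close to the 75th percentile of the 302 sites, 363.25 bp. The other moved values follow from their limits. Another factor lay within 500 bp of 8.94% of sites and within 2 kb of 33.1%. The proximal 10% of the arms held 22.8% of sites, against 14.5% of all autosomal regions and 22.2% of regions that HP1b shared. The median distance was 23235 bp to the nearest of fewer H3K4me3 summits. Depth is unknown, and whether peaks were missed in any list was not tested.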
